A study of Mus musculus with 24 samples.

Results

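Alveolar macrophages are the resident phagocytes of the lung's airspaces, and here they were compared between 2 genotypes by bulk RNA sequencing. The 6 libraries were 3 from the genotype labelled Z165KO (KO here) and 3 from wild type (WT), out of 24 libraries of 8 groups in the series, whose other libraries are Kupffer cells, microglia and splenic macrophages of the same genotypes. Both groups are alveolar macrophages sorted from digested mouse lung, with RNA from 100000 cells a sample and libraries made with a kit for ultra-low RNA input. The labels name no sorting gate, age, sex or treatment, do not describe the Z165KO allele, and do not say whether replicates were separate animals. The p-values therefore describe only how far these libraries spread, and that spread may be technical. All 6 libraries held transcripts of the Y-linked gene Ddx3y (66.9 to 122 CPM) and almost no Xist (0 to 0.0512 CPM, where CPM is the count per 1000000 counted reads). Members of the comparison were all genes of the deposited count table that passed a filter on low counts, 17369 of 55487.

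The series title names cMaf and Zeb2. ZEB2 is a DNA-binding repressor with clusters of zinc fingers that recognise E-boxes, short DNA motifs, and is best known for repressing epithelial genes; in macrophages it is known for keeping tissue identity. Alveolar macrophages seed the lung from fetal monocytes under GM-CSF and TGF-beta, which induce PPARγ, the nuclear receptor on which their programme of lipid handling depends. They take up and break down surfactant, remain largely separate from blood monocytes in the healthy lung, and express little of the cMaf factor found in most other macrophages.

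The libraries carried the defining markers of alveolar macrophages at like levels in both genotypes. Siglecf, a sialic-acid lectin, read 639.9, 568 and 543 CPM in KO libraries, against 612, 572 and 570.2 CPM in WT libraries. Chil3, a secreted chitinase-like protein, read 27557, 21697 and 23119 CPM in KO libraries, against 17373, 21877 and 21980.3 CPM in WT libraries. Pparg read 318, 336 and 346 CPM in KO libraries, against 350.5, 370.2 and 330.5 CPM in WT libraries, and Car4, a membrane carbonic anhydrase, read 717, 1034 and 1532 CPM in KO libraries, against 616, 821 and 1067 CPM in WT libraries. The genotypes overlapped for all 4 markers, and none passed the test (adjusted p from 0.499 to 0.961). By TPM, a level that allows for transcript length, Chil3 ranked 2nd of all genes in both groups, at 44618 ± 5298 TPM in KO and 39042 ± 3725 TPM in WT libraries (SD, n = 3 each). Of 30 alveolar identity genes tested, 0 were called in either direction by edgeR, while 7 higher and 5 lower had an unadjusted p under 0.05 and DESeq2 called 5 higher and 2 lower. Their median log2 fold change was 0.04, beside -0.01 over all genes tested. Within that list Fabp4, a fatty-acid carrier, read 38, 21.8 and 45.1 CPM in KO libraries, against 64, 172 and 92.5 CPM in WT libraries (log2 fold change -1.64, adjusted p = 0.181). Spp1, which encodes osteopontin, read 459.8, 512 and 509.9 CPM in KO libraries, against 986, 1003 and 626 CPM in WT libraries (adjusted p = 0.16). Ctsk, a lysosomal cysteine protease, averaged 519 ± 56 CPM in KO and 315 ± 50.2 CPM in WT libraries (adjusted p = 0.117), and the zinc transporter Slc39a2 233 ± 50.3 CPM in KO and 133 ± 13.7 CPM in WT libraries (adjusted p = 0.107). Groups did not overlap for these last 4 genes, and none was called.

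Total counts ran from 54136122 to 61036591 per library. Genes with at least 10 counts numbered 15958 to 17171 in KO and 17436 to 18514 in WT libraries. The 10 most counted genes took 11.5% to 12.0% of the counts in KO and 9.54% to 10.6% in WT libraries, mitochondrial genes 0.236% to 0.335% in KO and 0.336% to 0.371% in WT libraries, and protein-coding genes 98.6% to 98.9% in KO and 98.5% in WT libraries. None of these 4 measures overlapped between the genotypes, and their part in the results was not tested. KO replicate 1 stood apart on the first principal component, which held 38.2% of the variance, at -147, while the other KO libraries lay at -9.75 and 8.48 and the WT libraries between 42.8 and 59.9. WT replicate 2 stood apart in immediate early and inflammatory genes: Egr1, an early growth response factor, read 346, 214 and 225 CPM in KO libraries, against 684, 4976 and 536 CPM in WT libraries, and Cxcl2, a neutrophil chemokine named after its values were seen, read 253, 136 and 284 CPM in KO libraries, against 269, 2738 and 450.2 CPM in WT libraries.

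Among the genes that differed between the genotypes were Il1f9, Cxcr2, Myo1d and Cd63, which were higher in KO libraries, and Emilin1, Slc16a1 and Adgre4, which were lower. Of 17369 genes tested with edgeR's quasi-likelihood test, 55 had a Benjamini-Hochberg adjusted p under 0.05 and are named called genes here (0.317%), 32 higher in KO (0.184%) and 23 lower (0.132%). At an unadjusted p under 0.05 there were 2172 (12.5%), and DESeq2 called 922 (5.31%; 2.4% higher, 2.91% lower), among them all 55. A fit of all 24 libraries called 297 of 24030 (1.24%), 76 higher and 221 lower. It did not call 21 of the 55, 18 of them higher and 3 lower in KO, whose adjusted p there ran from 0.053 to 0.499. Among these were Cdh1, Cxcr1, Pzp, Cxcr2, Mfsd6, Ear6, St14, Pdk4, Mustn1, Fth1, Tjp3, Il1f9, Acot1, Tmem98, Fkbp11, Myo1d and Gm43366 of the higher genes, and Ablim3, Retnla and Itga4 of the lower. In all 55 the KO and WT libraries did not overlap, as for 7.61% of all tested genes with KO above and 11.8% with KO below. The call count rests on few libraries: without WT replicate 2 or without KO replicate 2 it was 0, without WT replicate 1 it was 3, without KO replicate 3 it was 8, without WT replicate 3 it was 19 and without KO replicate 1 it was 29. It was also 0 without KO replicate 1 and WT replicate 2 together, a setting chosen after the data were seen. Of the 55 genes, 25 were called in none of the 6 fits without 1 library, 21 in 1, 1 in 2 and 8 in 3, among them Cd63, Basp1, Myo1d, Il1f9, Cxcr2, Acot1 and Cd209a. All 55 kept their direction in every one of the 13 alternatives run. Because their KO and WT libraries did not overlap, leaving libraries out could hardly reverse a direction, so this is no independent check. The largest fitted changes belong to genes with 0 to 6 counts over 3 libraries in the lower genotype, where a fitted fold depends on a prior count.

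**Figure D1:**
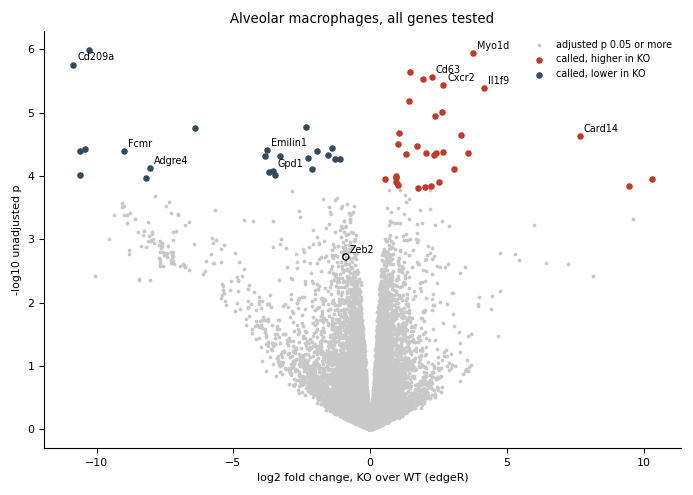
Each point is 1 of the 17369 genes tested in alveolar macrophages, with the log2 fold change of KO over WT from edgeR on the horizontal axis and -log10 of the unadjusted p on the vertical axis. The 32 genes called higher in KO are red, the 23 called lower are dark, and the open circle marks Zeb2, which lies among the grey genes at -0.89.

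Zeb2 read 139, 126 and 142 CPM in KO libraries, against 297, 282 and 190.4 CPM in WT libraries (chromosome 2, 44983632 to 45117395, minus strand). The groups did not overlap, the KO mean being 53% of that in WT (log2 fold change -0.89 ± 0.19 (SE), adjusted p = 0.116), and it was not called in this fit; DESeq2 gave an adjusted p of 0.000513 and a fit of all 24 libraries 0.0408. Its paralogue Zeb1 averaged 10.9 ± 1.24 CPM in KO and 9.54 ± 1.76 CPM in WT libraries (adjusted p = 0.776), and the groups overlapped. Maf, the gene of cMaf, was near 0 in every alveolar library: 0.0983, 0.231 and 0.835 CPM in KO libraries, against 1.86, 0.66 and 1.09 CPM in WT libraries (adjusted p = 0.522). Zeb2os, the antisense gene at the Zeb2 locus, read 0.377, 0.545 and 0.835 CPM in KO libraries, against 1.43, 1.73 and 1.31 CPM in WT libraries (adjusted p = 0.35). Because the labels leave the counting's strand open, reads of any overlapping stretch cannot be assigned to either gene. Partners of E-box biology were 0 called of 16 in the list of ZEB factors, E proteins and Maf factors (median log2 fold change 0.12). Id1, which encodes an inhibitor of E proteins, read 105, 109 and 135 CPM in KO libraries, against 31.7, 11.4 and 84.7 CPM in WT libraries (adjusted p = 0.369). Id2, another such inhibitor, averaged 189.7 ± 26.6 CPM in KO and 121 ± 28.4 CPM in WT libraries (adjusted p = 0.192). The E proteins Tcf3 and Tcf4 averaged 107 ± 7.41 CPM in KO and 87.9 ± 4.96 CPM in WT libraries (adjusted p = 0.25) and 14.7 ± 3.38 CPM in KO and 25.6 ± 7.33 CPM in WT libraries (adjusted p = 0.313). All 4 had non-overlapping groups, with Tcf4 lower and the others higher in KO, and were named for their small p. Of the 16 listed genes tested, 3 lay without overlap above WT in KO and 2 below. The shares over all tested genes were 7.61% and 11.8%. In this list 3 higher and 2 lower had an unadjusted p under 0.05, and DESeq2 called 2 higher and 1 lower.

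A first group of higher genes encodes an IL-36 cytokine, a scaffold of NF-κB signalling and a pair of IL-8 family receptors. Il1f9, also known as Il36g, encodes IL-36γ, a cytokine best known from skin and airway epithelium (chromosome 2, 24186476 to 24193568, plus strand). It read 46.8, 69.6 and 79 CPM in KO libraries, against 5.41, 2.44 and 3.42 CPM in WT libraries. All KO libraries lay far above all WT libraries, 17.3-fold in the means (log2 fold change 4.15 ± 0.33 (SE), adjusted p = 0.00885). Card14, a CARD scaffold that activates NF-κB in keratinocytes, read 3.62, 5.14 and 6.36 CPM in KO libraries, against 0, 0.033 and 0.0369 CPM in WT libraries, a total of 890 counts in KO and 4 in WT libraries (log2 fold change 7.65, adjusted p = 0.0254). It shares its locus with the oppositely oriented gene Sgsh, so without strand the reads of the overlap cannot be assigned. Of 23 tested genes of the IL-1 and IL-36 family and its signalling, these 2 were called higher and 0 lower. The other IL-36 ligand genes Il1f6 and Il1f8 had 0 counts in all 6 libraries. Il1rl2, which encodes the IL-36 receptor subunit, was present in both groups at 69.4, 123 and 114 CPM in KO libraries, against 77, 83.3 and 97.3 CPM in WT libraries, with overlap (adjusted p = 0.675). These 3 genes were named after their values were seen. Il1a read 214, 109 and 134 CPM in KO libraries, against 118, 1259 and 267 CPM in WT libraries, with WT replicate 2 far above the other 5 libraries and overlap between the groups (adjusted p = 0.425). The decoy receptor Il1r2 averaged 68.1 ± 20.7 CPM in KO and 36.6 ± 14.6 CPM in WT libraries (adjusted p = 0.313).

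Cxcr2, a receptor for CXCL1, CXCL2 and related chemokines that is best known from neutrophils, read 103, 119 and 107 CPM in KO libraries, against 20.5, 11.9 and 20.9 CPM in WT libraries (chromosome 1, 74153989 to 74161246, plus strand). That is 6.18-fold higher in KO in the means, with no overlap (log2 fold change 2.67 ± 0.21 (SE), adjusted p = 0.00885). Cxcr1, its close relative, read 26.5, 32.6 and 46.6 CPM in KO libraries, against 8.3, 7.62 and 10.2 CPM in WT libraries (log2 fold change 2.04 ± 0.23 (SE), adjusted p = 0.0258). The genes lie 30539 bases apart on chromosome 1 with no tested gene between them. Of 19 chemokine receptors tested, these 2 were called higher and 0 lower. Ccr2, the receptor of inflammatory monocytes, averaged 5.8 ± 2.05 CPM in KO and 12.6 ± 4.11 CPM in WT libraries (adjusted p = 0.255), and Cx3cr1, the fractalkine receptor, 2.66 ± 3.18 CPM in KO and 13.5 ± 6.31 CPM in WT libraries (adjusted p = 0.396). Ccrl2, an atypical receptor, read 164, 130.0 and 139 CPM in KO libraries, against 157, 956 and 164 CPM in WT libraries (adjusted p = 0.434).

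Neutrophil markers were measured beside Cxcr2. Of 17 tested neutrophil genes, 16 lay above 0 on the log2 scale and 1 below, with 1 called (Cxcr2) and a median of 1.06. In 4 of them all KO libraries lay above all WT libraries and in 1 below, 8 higher and 1 lower had an unadjusted p under 0.05, as 5.77% and 6.74% of all tested genes did, and DESeq2 called 3 higher and 0 lower. Their summed level without Cxcr2 was 689 to 901 CPM in KO and 375 to 587 CPM in WT libraries, without overlap. S100a9 and S100a8, the subunits of calprotectin, averaged 131 CPM in KO and 63.9 CPM in WT libraries (adjusted p = 0.206) and 80.1 CPM in KO and 47.5 CPM in WT libraries (adjusted p = 0.291). Csf3r, which encodes the receptor of the granulocyte growth factor G-CSF, read 253, 256 and 236 CPM in KO libraries, against 117, 90.5 and 158 CPM in WT libraries (adjusted p = 0.0811). Defining granule and surface markers were low: Ly6g read 1.05, 1.52 and 1.46 CPM in KO libraries, against 0, 0.396 and 0.628 CPM in WT libraries, and Camp read 0.262, 0.396 and 3.16 CPM in KO libraries, against 0, 0.297 and 0.24 CPM in WT libraries. Ltf, which encodes lactoferrin, read 4.11, 3.57 and 16.1 CPM in KO libraries, against 0.273, 3.69 and 2.62 CPM in WT libraries, and Ngp read 3.05, 3.72 and 16.7 CPM in KO libraries, against 1.83, 3.05 and 6.02 CPM in WT libraries. Camp, Ltf and Ngp overlapped between genotypes, and every KO library exceeded every WT library for Ly6g without a call (adjusted p = 0.588). Ly6g, Camp, Ltf and Ngp were named after their values were seen. The part of neutrophil RNA in the Cxcr2 and Cxcr1 values was not tested.

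Among the promoters of called genes, 4 are shown because the genes were called higher in KO and hold an E-box letter string within 150 bases of the start. The stretches are the 150 bases upstream of the RefSeq start on GRCm38.p6, printed 5′ to 3′ along the gene's strand, with the E-box string CACCTG or its reverse complement CAGGTG in capitals. They lie at chr2:24186326-24186475 (plus strand), chr1:74153844-74153993 (plus strand), chr10:81291582-81291731 (minus strand) and chr1:52727319-52727468 (minus strand).
Il1f9: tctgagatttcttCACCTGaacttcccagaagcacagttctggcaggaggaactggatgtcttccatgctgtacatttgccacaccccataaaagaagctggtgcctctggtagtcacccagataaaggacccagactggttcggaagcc
Cxcr2: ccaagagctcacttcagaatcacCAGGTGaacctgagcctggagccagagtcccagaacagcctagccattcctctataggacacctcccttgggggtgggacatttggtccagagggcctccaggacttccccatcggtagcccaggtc
Tjp3: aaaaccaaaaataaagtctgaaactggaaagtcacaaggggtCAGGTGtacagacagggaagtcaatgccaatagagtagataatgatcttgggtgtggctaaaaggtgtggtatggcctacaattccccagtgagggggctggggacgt
Mfsd6: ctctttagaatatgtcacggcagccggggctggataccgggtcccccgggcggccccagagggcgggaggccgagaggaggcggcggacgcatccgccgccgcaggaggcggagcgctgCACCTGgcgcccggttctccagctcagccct
In Il1f9 and Cxcr2 the string starts 137 and 127 bases upstream, in Tjp3 108 bases and in Mfsd6 31 bases. RefSeq gives Tjp3 another start, whose 150 bases at chr10:81291268-81291417 hold the string CACCTG 17 bases upstream; the stretch printed is that of the start farther upstream. Counting either orientation in the 250 bases before each start, it occurred in 6 of the 25 higher genes with an entry (24%) and in 4 of the 16 lower genes (25%). Among all 10915 tested genes with an entry the share was 18.5%, and among 27025 genes in all 19.4%. The shares of the called genes lie near that background, and a match says only that these letters are present.

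Another 4 genes called higher were Myo1d, Tmem98, Basp1 and Mustn1. Myo1d, a class I myosin that links actin to membranes, read 57.1, 74 and 64.8 CPM in KO libraries, against 4.73, 3.5 and 6.74 CPM in WT libraries (chromosome 11, 80482126 to 80780025, minus strand). All KO libraries lay above all WT libraries, 13.1-fold in the means (log2 fold change 3.75 ± 0.25 (SE), adjusted p = 0.00846), the smallest p among the higher genes. Tmem98, a membrane protein encoded 30150 bases away with no tested gene between, read 6.27, 10.8 and 10.3 CPM in KO libraries, against 1.01, 0.462 and 0.905 CPM in WT libraries (log2 fold change 3.56 ± 0.41 (SE), adjusted p = 0.0258). Basp1, a lipid-anchored protein of the inner plasma membrane, read 101, 121 and 108 CPM in KO libraries, against 12.6, 18.3 and 24 CPM in WT libraries (6.01-fold; log2 fold change 2.62 ± 0.24 (SE), adjusted p = 0.0172). Mustn1, a small nuclear protein known from muscle and cartilage, read 6.18, 11.2 and 8.59 CPM in KO libraries, against 0.751, 0.89 and 0.997 CPM in WT libraries (log2 fold change 3.32 ± 0.34 (SE), adjusted p = 0.0254). Of 20 tested genes of the list of class I myosins and cortical actin, these 4 were called higher and 0 lower, with a median log2 fold change of 0.14. That list was drawn up with the 4 calls known, so their share of it is no finding. Marcks and Marcksl1, which encode other membrane-anchored actin regulators, had lower KO means without a call, at 10.2 ± 3.15 CPM in KO and 20.5 ± 2.16 CPM in WT libraries (adjusted p = 0.165) and 21.3 ± 3.52 CPM in KO and 45.6 ± 18.3 CPM in WT libraries (adjusted p = 0.241). Coro1a, an actin-binding coronin, averaged 977 ± 116 CPM in KO and 723 ± 91.3 CPM in WT libraries (adjusted p = 0.224).

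**Figure D2:**
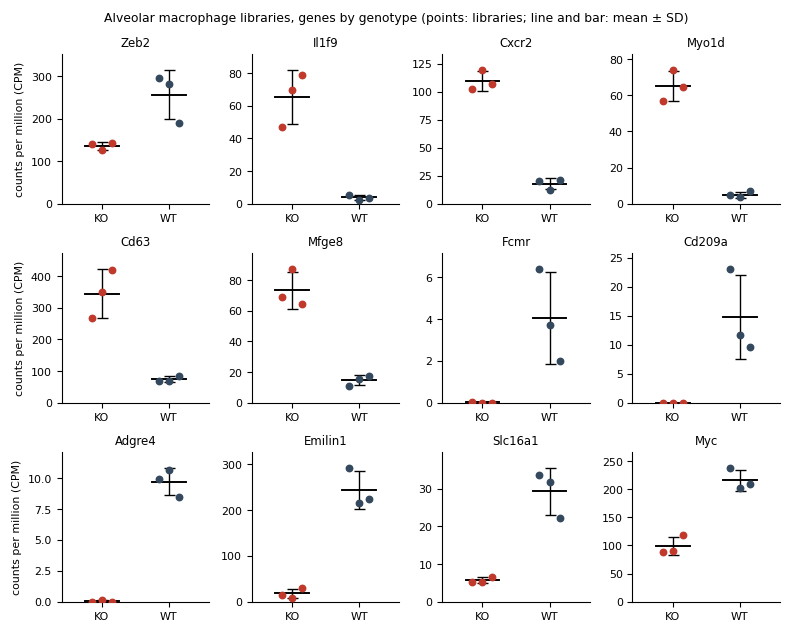
CPM in each alveolar library for 12 genes, with KO left of WT, points for libraries, and a line and bar for the mean ± SD of 3. Il1f9, Cxcr2, Myo1d, Cd63 and Mfge8 lie higher in all KO libraries; Zeb2, Fcmr, Cd209a, Adgre4, Emilin1, Slc16a1 and Myc lie lower.

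The tetraspanin genes Cd63 and Cd82 were called higher, and so was Mfge8. Cd63, a tetraspanin of late endosomes and lysosomes, read 266, 349 and 419.9 CPM in KO libraries, against 68, 68.6 and 84.3 CPM in WT libraries (chromosome 10, 128900989 to 128912822, plus strand). The groups did not overlap, and the KO mean was 4.68-fold higher (log2 fold change 2.25 ± 0.17 (SE), adjusted p = 0.00846). Cd82, another tetraspanin, read 201, 201 and 206 CPM in KO libraries, against 91.7, 92.5 and 127 CPM in WT libraries (log2 fold change 1.0 ± 0.14 (SE), adjusted p = 0.0478). Of 29 tested tetraspanin and lysosome genes, these 2 were called higher and 0 lower, and 12 higher and 1 lower had an unadjusted p under 0.05. DESeq2 called 8 higher and 1 lower. Over all tested genes, the shares higher were 0.184% called, 5.77% at an unadjusted p under 0.05 and 2.4% by DESeq2. This list was chosen with earlier results of these data known, so its counts are no test of it. The list's median log2 fold change was 0.19. Gpnmb, a lysosomal glycoprotein of lipid-loaded macrophages, read 1289.6, 1663 and 1801 CPM in KO libraries, against 674, 695 and 918 CPM in WT libraries and missed the threshold (log2 fold change 1.08 ± 0.15 (SE), adjusted p = 0.0503). Lgals3, which encodes galectin-3, averaged 2674 ± 38.4 CPM in KO and 1780.5 ± 328 CPM in WT libraries (adjusted p = 0.12), and Grn, the progranulin gene, 1956 ± 110.4 CPM in KO and 1489 ± 171 CPM in WT libraries (adjusted p = 0.114). Ctss, a cathepsin of antigen processing, ran the other way at 2387, 2160.3 and 2214 CPM in KO libraries, against 3271, 3445 and 3156 CPM in WT libraries (adjusted p = 0.0983). Tspan32, a haematopoietic tetraspanin, averaged 149 ± 8.79 CPM in KO and 89.7 ± 16.8 CPM in WT libraries (adjusted p = 0.11).

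Mfge8 encodes a secreted protein that bridges phosphatidylserine on dying cells to integrins, and it read 69, 87.1 and 64.2 CPM in KO libraries, against 11.1, 15.5 and 17.3 CPM in WT libraries (5.01-fold; log2 fold change 2.35 ± 0.22 (SE), adjusted p = 0.0177). It was the 1 called gene of 17 tested for uptake of apoptotic cells, and the list's median was -0.38. Itgav, a subunit of its integrin receptor, averaged 32.6 ± 8.64 CPM in KO and 53.4 ± 9.63 CPM in WT libraries (adjusted p = 0.279). The receptor kinase Mertk and its ligand gene Pros1 averaged 501 ± 36.7 CPM in KO and 624 ± 60.5 CPM in WT libraries (adjusted p = 0.315) and 449 ± 18 CPM in KO and 592 ± 75.5 CPM in WT libraries (adjusted p = 0.286). Among 26 scavenger and pattern receptors 0 were called by edgeR, 10 had an unadjusted p under 0.05 (4 higher, 6 lower) and DESeq2 called 3 higher and 1 lower. The inhibitory IgG receptor Fcgr2b read 411, 289 and 323 CPM in KO libraries, against 156, 133 and 228 CPM in WT libraries (adjusted p = 0.123) and Fcgr4 134, 111 and 112 CPM in KO libraries, against 88.1, 91.5 and 78.7 CPM in WT libraries (adjusted p = 0.214), without overlap in either. The Toll-like receptors Tlr4, Tlr7 and Tlr8 had log2 fold changes of -0.53, -0.56 and -0.56 (adjusted p from 0.239 to 0.291).

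The lipid and fuel enzymes Acot1, Pdk4, Chpt1 and Lpcat2 were called higher in KO, and the lactate carrier Slc16a1 and the enzyme Gpd1 lower. Acot1, a cytosolic acyl-CoA thioesterase and textbook PPAR target, read 97.3, 97.9 and 97.1 CPM in KO libraries, against 35.5, 33.2 and 39.5 CPM in WT libraries, with little spread in either group (log2 fold change 1.46 ± 0.11 (SE), adjusted p = 0.00846). About 18.7% of its 50-base words also occur in other transcripts, first of all its paralogue Acot2, so its reads may be split. Pdk4, the kinase that restrains pyruvate entry into mitochondria, read 113, 74.9 and 108 CPM in KO libraries, against 19.4, 12.8 and 25.8 CPM in WT libraries (5.11-fold; log2 fold change 2.39 ± 0.27 (SE), adjusted p = 0.0258). Chpt1, which catalyses the last step of phosphatidylcholine synthesis, read 55.5, 54.7 and 57.9 CPM in KO libraries, against 21.3, 21.7 and 20.5 CPM in WT libraries (log2 fold change 1.43 ± 0.12 (SE), adjusted p = 0.0126). Lpcat2, which reacylates lysophosphatidylcholine and makes platelet-activating factor, read 42.3, 41.8 and 48.9 CPM in KO libraries, against 17.8, 15.4 and 21.1 CPM in WT libraries (log2 fold change 1.33 ± 0.15 (SE), adjusted p = 0.0258). For each of these 4 genes every KO library exceeded every WT library.

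Slc16a1, the monocarboxylate transporter MCT1 for lactate and pyruvate, read 5.21, 5.17 and 6.61 CPM in KO libraries, against 33.7, 31.9 and 22.3 CPM in WT libraries (5.17-fold lower; log2 fold change -2.35 ± 0.23 (SE), adjusted p = 0.0233). Gpd1, cytosolic glycerol-3-phosphate dehydrogenase, read 1.65, 1.87 and 1.76 CPM in KO libraries, against 28.3, 24.8 and 9.29 CPM in WT libraries (log2 fold change -3.54 ± 0.45 (SE), adjusted p = 0.0369). KO values of both were uniform, while WT replicate 3 was the lowest WT library for each. Of 24 fatty-acid oxidation and glycerol genes, 2 were called higher (Acot1, Pdk4) and 1 lower (Gpd1). Among 26 glucose and lactate genes Slc16a1 was the 1 call, while 11 higher and 2 lower had an unadjusted p under 0.05. DESeq2 called 5 higher and 1 lower of these 26. Over all tested genes 0.184% were called higher and 0.132% lower. At an unadjusted p under 0.05 the shares were 5.77% and 6.74%, and by DESeq2 2.4% and 2.91%. Both lists were chosen with earlier results of these data known, so their counts are no test of them. The glucose transporter Slc2a1 read 72.2, 84 and 70.9 CPM in KO libraries, against 26.5, 29.7 and 40.8 CPM in WT libraries (adjusted p = 0.0582), without overlap. Slc2a6 and Slc2a3, further hexose transporters, averaged 31.1 ± 11.8 CPM in KO and 13.1 ± 2.31 CPM in WT libraries (adjusted p = 0.148) and 20.3 ± 10.7 CPM in KO and 8.02 ± 1.76 CPM in WT libraries (adjusted p = 0.225). The glycolytic enzymes Gapdh and Pkm averaged 1406 ± 97.7 CPM in KO and 1016 ± 180.2 CPM in WT libraries (adjusted p = 0.18) and 1044 ± 83.1 CPM in KO and 824 ± 65 CPM in WT libraries (adjusted p = 0.172).

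Of 28 genes of surfactant lipid uptake and breakdown, 0 were called by edgeR, although 20 lay above 0, 9 higher and 3 lower had an unadjusted p under 0.05 and DESeq2 called 7 higher and 1 lower. Dgat2, which makes triglyceride, read 660.0, 756 and 527 CPM in KO libraries, against 212, 187 and 339.6 CPM in WT libraries (adjusted p = 0.0808). The lipid-droplet coat gene Plin3 averaged 287 ± 4.58 CPM in KO and 204 ± 26.2 CPM in WT libraries (adjusted p = 0.113). The desaturases Scd1 and Scd2 averaged 80.2 ± 16.1 CPM in KO and 27.3 ± 18.1 CPM in WT libraries (adjusted p = 0.188) and 70.3 ± 4.64 CPM in KO and 48.4 ± 2.6 CPM in WT libraries (adjusted p = 0.129). The sterol receptor genes Nr1h3 and Nr1h2, which encode LXRα and LXRβ, averaged 107 ± 16.1 CPM in KO and 60.4 ± 3.75 CPM in WT libraries (adjusted p = 0.0811) and 194 ± 7.19 CPM in KO and 158 ± 12.5 CPM in WT libraries (adjusted p = 0.225). In these 6 genes, named for their small p, all KO libraries lay above all WT libraries. Of the 28 listed genes tested, 6 lay without overlap above WT in KO and 4 below. The shares over all tested genes were 7.61% and 11.8%. Acsl4 and Gk, which activate arachidonate and phosphorylate glycerol, went the other way, at 33.4 ± 0.105 CPM in KO and 46 ± 6.95 CPM in WT libraries (adjusted p = 0.334) and 30.4 ± 4.51 CPM in KO and 42.1 ± 4.03 CPM in WT libraries (adjusted p = 0.334), without overlap.

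Fth1, Blvrb and Gstm1, of iron, haem and glutathione handling, were called higher, as were Best1, Akt2 and Pzp. Fth1, the heavy chain of ferritin, read 18239.8, 18818 and 18947 CPM in KO libraries, against 12104, 13336 and 13994 CPM in WT libraries and was the 3rd most abundant transcript in KO and the 4th in WT libraries by TPM (log2 fold change 0.53 ± 0.07 (SE), adjusted p = 0.0402). Blvrb, a flavin and biliverdin reductase, read 72.7, 85.5 and 72.4 CPM in KO libraries, against 42.8, 37.3 and 42.7 CPM in WT libraries (log2 fold change 0.94 ± 0.12 (SE), adjusted p = 0.0391). Gstm1, a glutathione transferase, read 723, 863 and 874 CPM in KO libraries, against 446, 378 and 378 CPM in WT libraries (log2 fold change 1.06 ± 0.11 (SE), adjusted p = 0.0254), with 23.1% of its 50-base words shared with relatives such as Gstm3. Best1, a chloride channel of the bestrophin family, read 135, 113 and 109 CPM in KO libraries, against 38.6, 28.3 and 45.7 CPM in WT libraries (log2 fold change 1.70 ± 0.19 (SE), adjusted p = 0.0258). Best1 lies on the opposite strand 76 bases beyond the end of Fth1, and counting without strand could give it reads that run past Fth1. Akt2, a kinase of insulin and growth-factor signalling, read 112, 115 and 114 CPM in KO libraries, against 65.6, 49.3 and 67 CPM in WT libraries (log2 fold change 0.94 ± 0.13 (SE), adjusted p = 0.0432), with 16% of its words shared with a pseudogene. Blvrb and Akt2 are 125408 bases apart on chromosome 7. Pzp, an α2-macroglobulin-type protease inhibitor, read 31.7, 32.4 and 35 CPM in KO libraries, against 9.44, 8.34 and 8.44 CPM in WT libraries (log2 fold change 1.94 ± 0.15 (SE), adjusted p = 0.00846).

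Among epithelial genes of the kind that ZEB factors repress in other cells, Cdh1, Jup, Tjp3 and St14 were present in both genotypes and called higher in KO. Cdh1, which encodes E-cadherin, read 191, 221 and 265 CPM in KO libraries, against 117, 117 and 126 CPM in WT libraries (log2 fold change 0.94 ± 0.12 (SE), adjusted p = 0.0402). Jup, which encodes plakoglobin, read 341, 390.1 and 361 CPM in KO libraries, against 190.0, 158 and 204 CPM in WT libraries (log2 fold change 1.02 ± 0.11 (SE), adjusted p = 0.0258). Tjp3, the tight-junction scaffold ZO-3, read 10.4, 17.3 and 20.1 CPM in KO libraries, against 3.86, 2.61 and 4.03 CPM in WT libraries (log2 fold change 2.22 ± 0.31 (SE), adjusted p = 0.0481), although it overlaps the oppositely oriented gene Apba3. St14, the membrane protease matriptase, read 9.73, 16.1 and 13.6 CPM in KO libraries, against 2.71, 3.28 and 3.9 CPM in WT libraries (log2 fold change 2.02 ± 0.28 (SE), adjusted p = 0.0483). In each the groups did not overlap. Of 23 tested genes on this list, these 4 were called higher and 0 lower, and 11 higher and 1 lower had an unadjusted p under 0.05. DESeq2 called 10 higher and 0 lower. Over all tested genes, the shares higher were 0.184% called, 5.77% at an unadjusted p under 0.05 and 2.4% by DESeq2. The list's median log2 fold change was 0.46, beside -0.01 over all tested genes. The list was chosen with earlier results of these data known, so these counts and the median are no test of it. Epcam, an epithelial adhesion molecule, read 287, 226 and 187 CPM in KO libraries, against 98.8, 54.2 and 109 CPM in WT libraries (adjusted p = 0.104). The matriptase inhibitors Spint1 and Spint2 averaged 187 ± 11.9 CPM in KO and 124 ± 19.8 CPM in WT libraries (adjusted p = 0.114) and 55.9 ± 7.19 CPM in KO and 21.6 ± 9.58 CPM in WT libraries (adjusted p = 0.114). Cldn1, claudin-1, read 105, 143 and 174 CPM in KO libraries, against 35.2, 24.8 and 71.5 CPM in WT libraries (adjusted p = 0.123), and Lsr, a tricellular-junction receptor, averaged 175 ± 32.7 CPM in KO and 115 ± 13.4 CPM in WT libraries (adjusted p = 0.192).

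Lung epithelial RNA was measured beside this group. Sftpc, the surfactant protein C gene of type 2 cells, read 160.1, 122 and 174 CPM in KO libraries, against 232, 80.4 and 126 CPM in WT libraries, with overlap (adjusted p = 0.955). Of 20 tested alveolar and airway epithelial genes, 1 was called higher (Cdh1) and 0 lower, 9 lay above 0 and 11 below, and the median was -0.10. Without Cdh1 their summed level was 544 to 700 CPM in KO and 348 to 649 CPM in WT libraries, which overlapped. The part of epithelial RNA in the junction genes was not tested.

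**Figure D3:**
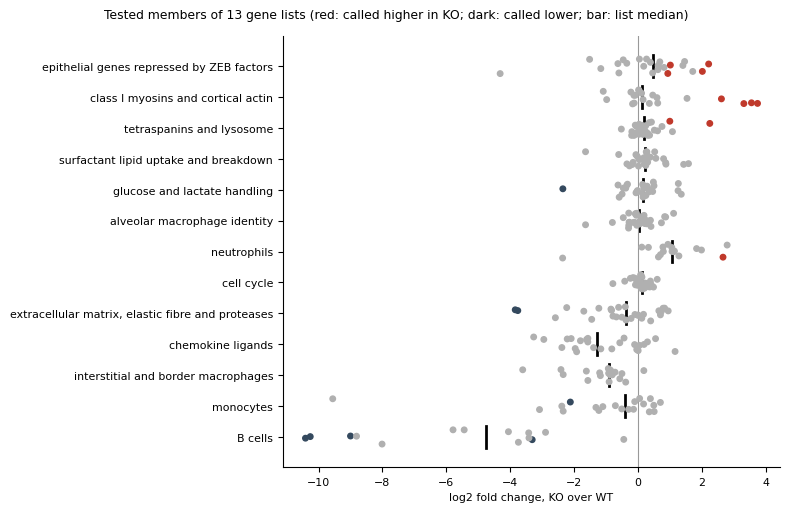
Log2 fold change of KO over WT on the horizontal axis for each tested member of 13 gene lists, which run down the page, with red for genes called higher in KO, dark for genes called lower, grey for the rest and a black bar at the list median. Medians run from -4.75 for B cells to 1.06 for neutrophils.

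Bmpr1a, a type I receptor for bone morphogenetic proteins, read 28.3, 20.9 and 17.3 CPM in KO libraries, against 7.38, 6.27 and 6.72 CPM in WT libraries (log2 fold change 1.75 ± 0.24 (SE), adjusted p = 0.0493) and was the 1 called gene of 17 tested in that pathway. The remaining higher calls were genes of varied function. Mfsd6, a member of a transporter family, read 59.4, 35 and 31.8 CPM in KO libraries, against 8.08, 5.59 and 7.04 CPM in WT libraries (log2 fold change 2.65 ± 0.30 (SE), adjusted p = 0.0258). Ear6, a secreted ribonuclease of the eosinophil-associated family, read 14.7, 21.6 and 33.6 CPM in KO libraries, against 3.19, 4.11 and 5.06 CPM in WT libraries (log2 fold change 2.52 ± 0.34 (SE), adjusted p = 0.0432), while the eosinophil granule genes Epx and Prg3 held at most 2 counts a genotype over 3 libraries and were named after their values were seen. Of 7 tested eosinophil, basophil and mast-cell genes Ear6 was the 1 call, while 5 lay above 0 and 2 below, the lowest at a log2 fold change of -7.68. At an unadjusted p under 0.05 there were 1 higher and 1 lower, and DESeq2 called 1 higher and 1 lower. Spag11b, a defensin-like secreted peptide known from the epididymis, read 67.9, 74.3 and 96.2 CPM in KO libraries, against 12, 13.1 and 23.2 CPM in WT libraries (log2 fold change 2.33 ± 0.27 (SE), adjusted p = 0.0258). Fkbp11, a prolyl isomerase of the secretory pathway, read 3.34, 4.05 and 3.98 CPM in KO libraries, against 0.529, 0.445 and 0.388 CPM in WT libraries (log2 fold change 3.08 ± 0.38 (SE), adjusted p = 0.0346). Gm43366, a transcript model of unknown function, read 3.29, 3.14 and 1.53 CPM in KO libraries, against 0, 0 and 0 CPM in WT libraries, at least 155-fold higher against 3 counts over the WT group (adjusted p = 0.0402).

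Among the lower genes were myeloid surface receptors. Adgre4, an EGF-TM7 adhesion receptor also called F4/80-like receptor, read 0, 0.0991 and 0 CPM in KO libraries, against 9.92, 10.7 and 8.5 CPM in WT libraries (chromosome 17, 55749984 to 55853662, plus strand). KO libraries held 6 counts in all, each in KO replicate 2, against 1688 in WT libraries (log2 fold change -8.06, adjusted p = 0.0346). Its relatives Adgre1, which encodes F4/80, and Adgre5, which encodes CD97, averaged 459 ± 79.4 CPM in KO and 394 ± 44.4 CPM in WT libraries (adjusted p = 0.579) and 51.4 ± 5.99 CPM in KO and 45.3 ± 4.39 CPM in WT libraries (adjusted p = 0.59), with overlap. Of 10 tested adhesion receptors of this kind Adgre4 was the 1 call (median 0.36). Adgrl2, a latrophilin, averaged 152 ± 5.16 CPM in KO and 111 ± 7.11 CPM in WT libraries (adjusted p = 0.123). Ms4a6c, a tetraspan protein of monocytes and macrophages, read 3.21, 3.05 and 2.56 CPM in KO libraries, against 13.1, 15.1 and 10.8 CPM in WT libraries (log2 fold change -2.12 ± 0.26 (SE), adjusted p = 0.0346), and 11.3% of its 50-base words occur elsewhere, first in Ms4a6b. Cd209a, a C-type lectin of monocyte-derived dendritic cells, read 0.0164, 0 and 0 CPM in KO libraries, against 23, 11.7 and 9.57 CPM in WT libraries (chromosome 8, 3743397 to 3748984, minus strand). KO libraries held 1 count against 2575 in WT libraries, a ratio of pooled CPM of 2643 in favour of WT libraries (95% counting interval 474 to 104427) (adjusted p = 0.00846).

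Retnla, the secreted protein FIZZ1 of alternative activation, read 1.2, 0.561 and 0.728 CPM in KO libraries, against 16.8, 6.86 and 10.2 CPM in WT libraries (log2 fold change -3.72 ± 0.47 (SE), adjusted p = 0.037). Of 22 alternative-activation genes, 2 were called lower (Retnla, Cd209a) and 0 higher, 17 lay below 0 and the median was -0.76. In this list 2 higher and 7 lower had an unadjusted p under 0.05, and DESeq2 called 1 higher and 6 lower. Over all tested genes, the shares lower were 0.132% called, 6.74% at an unadjusted p under 0.05 and 2.91% by DESeq2. The list was chosen with earlier results of these data known, so its counts and median are no test of it. The lectins Mgl2 and Clec10a averaged 4.19 ± 3.58 CPM in KO and 22.6 ± 5.47 CPM in WT libraries (adjusted p = 0.203) and 0.363 ± 0.306 CPM in KO and 2.77 ± 0.849 CPM in WT libraries (adjusted p = 0.156). Egr2, a transcription factor that responds to interleukin 4, read 423, 363 and 352 CPM in KO libraries, against 1016, 1423 and 818 CPM in WT libraries (adjusted p = 0.0707), and Ccl17, a chemokine of the same programme, 5.1, 2.36 and 2.15 CPM in KO libraries, against 7.62, 10.1 and 19.9 CPM in WT libraries (adjusted p = 0.182). Alox15, a lipoxygenase, went the other way at 3.46, 11.4 and 19 CPM in KO libraries, against 1.16, 1.63 and 2.35 CPM in WT libraries (adjusted p = 0.13). Among 24 chemokine ligands 0 were called by edgeR and 18 lay below 0 (median -1.27), 1 higher and 8 lower had an unadjusted p under 0.05, and DESeq2 called 1 higher and 4 lower. Ccl3 read 43.8, 46.9 and 78 CPM in KO libraries, against 154, 224 and 138 CPM in WT libraries (adjusted p = 0.0884), Ccl7 1.85, 1.77 and 3.48 CPM in KO libraries, against 13.6, 9.23 and 7.81 CPM in WT libraries (adjusted p = 0.0935) and Ccl2 15.1, 7.43 and 12 CPM in KO libraries, against 29.5, 21.5 and 28.3 CPM in WT libraries (adjusted p = 0.16). Ccl6, the most abundant chemokine, averaged 6824 ± 1315 CPM in KO and 4729 ± 198 CPM in WT libraries (adjusted p = 0.159).

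The matrix and adhesion genes Emilin1, Itga4, Klk8 and Ddr1 were called lower. Emilin1, a glycoprotein of elastic fibres and ligand of α4 integrin, read 15.3, 8.7 and 29.2 CPM in KO libraries, against 292, 215 and 225 CPM in WT libraries (chromosome 5, 30913402 to 30921277, plus strand), 13.7-fold lower in KO (log2 fold change -3.76 ± 0.42 (SE), adjusted p = 0.0258). Itga4, the α4 integrin subunit itself, read 23.5, 21.6 and 30.2 CPM in KO libraries, against 67.9, 61.7 and 59.7 CPM in WT libraries (log2 fold change -1.30 ± 0.15 (SE), adjusted p = 0.0263), with a stretch shared with the oppositely oriented gene Cerkl. Klk8, a secreted serine protease, read 0.623, 0.33 and 0.728 CPM in KO libraries, against 9.43, 9.42 and 5.65 CPM in WT libraries (log2 fold change -3.84 ± 0.45 (SE), adjusted p = 0.0258). Ddr1, a collagen-binding receptor kinase, read 0.0164, 0.033 and 0.0178 CPM in KO libraries, against 1.9, 1.8 and 2.75 CPM in WT libraries (log2 fold change -6.42 ± 0.64 (SE), adjusted p = 0.0233). Of 28 genes of matrix, elastic fibre and proteases, 2 were called lower (Emilin1, Klk8) and 0 higher (median -0.38). Fn1, fibronectin, read 640.3, 578 and 352 CPM in KO libraries, against 1504, 1224 and 1027 CPM in WT libraries (adjusted p = 0.115), and the protease inhibitor Timp2 25.5, 26.1 and 40.4 CPM in KO libraries, against 135, 106 and 59.8 CPM in WT libraries (adjusted p = 0.104). Sparc, a matricellular protein, averaged 27.9 ± 3.99 CPM in KO and 49 ± 13.2 CPM in WT libraries (adjusted p = 0.182). All 3 had every KO library below every WT library and were named for their small p. Of the 28 listed genes tested, 9 lay without overlap below WT in KO and 1 above. The shares over all tested genes were 11.8% and 7.61%, and 0.132% were called lower. In this list 2 higher and 6 lower had an unadjusted p under 0.05, and DESeq2 called 1 higher and 6 lower. It was chosen with earlier results of these data known, so its counts are no test of it.

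Myc, Fyn, Arhgap15, Sema6d, Ank2 and Gm8995 were called lower too. Myc, a driver of growth that is tied to self-renewal in tissue macrophages, read 88.5, 90.9 and 118 CPM in KO libraries, against 238, 202 and 209.6 CPM in WT libraries (log2 fold change -1.10 ± 0.13 (SE), adjusted p = 0.0263). It was the 1 called gene of 27 macrophage transcription factors. Of 30 cell-cycle genes 0 were called, 0 had an unadjusted p under 0.05 and DESeq2 called 0 (median log2 fold change 0.13). Fyn, a Src-family kinase, read 22.5, 23.5 and 22.2 CPM in KO libraries, against 79.1, 71 and 53.1 CPM in WT libraries (log2 fold change -1.55 ± 0.18 (SE), adjusted p = 0.0258). Arhgap15, a Rac GTPase-activating protein encoded on the same stretch of chromosome 2 as Zeb2, read 3.75, 3.32 and 4.44 CPM in KO libraries, against 24.3, 18.1 and 14.2 CPM in WT libraries (log2 fold change -2.27 ± 0.27 (SE), adjusted p = 0.0263), and was the 1 edgeR call of 14 tested genes within 5 Mb of Zeb2. Of these 14, 4 lay without overlap below WT in KO and 1 above, beside 11.8% and 7.61% of all tested genes. At an unadjusted p under 0.05 there were 1 higher and 4 lower, and DESeq2 called 1 higher and 3 lower. Over all tested genes, the shares lower were 0.132% called, 6.74% at an unadjusted p under 0.05 and 2.91% by DESeq2. Sema6d, a semaphorin, read 13.3, 14.6 and 9.73 CPM in KO libraries, against 57.5, 47.2 and 42.3 CPM in WT libraries (log2 fold change -1.93 ± 0.22 (SE), adjusted p = 0.0258), and Ank2, ankyrin-B, 0.311, 0.215 and 0.391 CPM in KO libraries, against 3.96, 2.77 and 3.75 CPM in WT libraries (log2 fold change -3.48 ± 0.45 (SE), adjusted p = 0.0389). Gm8995, a transcribed pseudogene with 19.0% shared words, read 26, 29 and 31.6 CPM in KO libraries, against 87, 80.6 and 64.8 CPM in WT libraries (log2 fold change -1.40 ± 0.16 (SE), adjusted p = 0.0258).

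Kif7, Arhgef37 and Ablim3 were at or near 0 counts in KO. Kif7, a ciliary kinesin of Hedgehog signalling, had 0 counts in all KO libraries and 2.97, 4.09 and 2.94 CPM in WT libraries, at least 199-fold lower (adjusted p = 0.0258). Part of it overlaps the oppositely oriented gene Ticrr. Arhgef37, a predicted guanine nucleotide exchange factor, had 0 counts in KO and 1.86, 3.22 and 4.9 CPM in WT libraries, at least 195-fold lower (adjusted p = 0.0389). Ablim3, an actin-binding LIM protein encoded 262798 bases away, held 1 count in KO and 3.02, 1.07 and 2.94 CPM in WT libraries, a ratio of pooled CPM of 412 in favour of WT libraries (95% counting interval 73.4 to 16296) (adjusted p = 0.0402).

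B-cell transcripts had the lowest median of the 35 gene lists. Fcer2a, the low-affinity IgE receptor CD23, had 0 KO counts and 2.94, 2.89 and 2.97 CPM in WT libraries, at least 174-fold lower (adjusted p = 0.0258). Fcmr, which encodes a receptor for the Fc part of IgM, held 1 KO count and read 6.39, 3.73 and 1.99 CPM in WT libraries (adjusted p = 0.0258). Ighm, the constant region of the IgM heavy chain, read 6.37, 8.45 and 7.58 CPM in KO libraries, against 125, 50.9 and 51.3 CPM in WT libraries (log2 fold change -3.31 ± 0.39 (SE), adjusted p = 0.0258). All 14 tested B-cell genes lay below 0 with no overlap, 4 were called lower and 0 higher, and DESeq2 called 10 lower. Over all tested genes the shares were 11.8% below WT without overlap, 0.132% called lower and 2.91% lower by DESeq2. This list too was chosen with earlier results of these data known. Their median log2 fold change was -4.75, and -4.55 where members without a KO count took their bound instead. Cd79a, a signalling chain of the receptor, read 0, 0.0991 and 0.355 CPM in KO libraries, against 11.6, 8.44 and 5.17 CPM in WT libraries (adjusted p = 0.104), Cd79b 0, 0.182 and 0.639 CPM in KO libraries, against 3.23, 5.52 and 2.12 CPM in WT libraries (adjusted p = 0.287) and Ms4a1, which encodes CD20, 0, 0.165 and 0.124 CPM in KO libraries, against 5, 5.79 and 2.01 CPM in WT libraries (adjusted p = 0.11). Igkc, the kappa light chain, read 0, 4.77 and 1.85 CPM in KO libraries, against 48.1, 40.4 and 22.4 CPM in WT libraries (adjusted p = 0.224), and Pax5, the B-lineage factor, had 0 counts in KO and 0.854, 0.462 and 0.351 CPM in WT libraries. Cd22, a sialic-acid lectin that these macrophage libraries also hold, was the member with the highest KO level, at 116, 107 and 88.6 CPM in KO libraries, against 164, 133 and 138 CPM in WT libraries (adjusted p = 0.291). The list sum was 100 to 125 CPM in KO libraries and 249 to 389.5 CPM in WT libraries. In bulk libraries, fewer B cells carried through the sort and less RNA per cell cannot be told apart.

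Other cell-type lists held 1 called gene or none. Of 20 monocyte genes 1 was called lower (Ms4a6c) and 0 higher, 13 lay below 0, 2 higher and 8 lower had an unadjusted p under 0.05, DESeq2 called 1 higher and 6 lower, and the sums did not overlap, at 2273 to 3423 CPM in KO libraries and 3545 to 4517 CPM in WT libraries. Vcan, versican, had 0 counts in KO and 3.33, 0.528 and 1.07 CPM in WT libraries (adjusted p = 0.104). Ms4a4c, Plac8 and F13a1 averaged 0.551 CPM in KO and 4.73 CPM in WT libraries (adjusted p = 0.11), 2.35 CPM in KO and 12.6 CPM in WT libraries (adjusted p = 0.17) and 11.1 CPM in KO and 28.3 CPM in WT libraries (adjusted p = 0.16). Of 18 interstitial and border macrophage genes 0 were called by edgeR, 4 lower had an unadjusted p under 0.05, DESeq2 called 1 lower, 17 lay below 0 and the sums overlapped at 390.2 to 551 CPM in KO libraries and 326 to 641 CPM in WT libraries. The complement genes C1qa and C1qb averaged 14.3 CPM in KO and 27.6 CPM in WT libraries (adjusted p = 0.389) and 21.9 CPM in KO and 42.6 CPM in WT libraries (adjusted p = 0.334). Of 24 dendritic-cell genes 23 were tested and Cd209a was the 1 call, while Cd24a averaged 86.1 CPM in KO and 54.9 CPM in WT libraries (adjusted p = 0.235). T and innate lymphocyte, endothelial, fibroblast and erythroid lists held 0 called of 19, 15, 16 and 10 tested. At an unadjusted p under 0.05 they held 3 higher and 0 lower, 2 and 0, 1 and 1, and 0 and 0. DESeq2 called 1 higher in the first, 0 in the endothelial, 1 higher in the fibroblast and 0 in the erythroid list. The endothelial sum was 340.1 to 352 CPM in KO libraries and 294 to 305 CPM in WT libraries, without overlap.

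**Figure D4:**
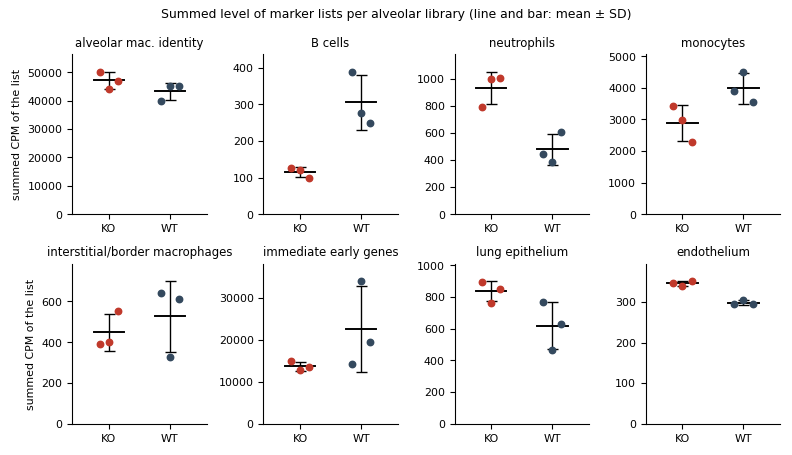
Summed CPM of 8 marker lists in each alveolar library, KO left of WT, with points for libraries and a line and bar for the mean ± SD of 3. B-cell sums lie at 100 to 125 in KO and 249 to 390 in WT libraries, neutrophil sums at 792 to 1008 in KO and 387 to 608 in WT libraries, and WT replicate 2 stands alone among immediate early genes.

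Immediate early genes, which respond to handling and dissociation within minutes, held 0 called of 28 by edgeR, 2 higher and 9 lower at an unadjusted p under 0.05, and 1 higher and 3 lower by DESeq2. Their sum was 12824 to 14859 CPM in KO libraries and 14294 to 34044 CPM in WT libraries, with WT replicate 2 the highest. Dusp1, a phosphatase of MAP kinases, read 746, 764 and 1057 CPM in KO libraries, against 1506, 3740.3 and 1462 CPM in WT libraries (adjusted p = 0.217). Klf6 and Socs3 averaged 294 ± 16.9 CPM in KO and 507 ± 109 CPM in WT libraries (adjusted p = 0.14) and 45 ± 5.7 CPM in KO and 102 ± 50.7 CPM in WT libraries (adjusted p = 0.244). Signalling by GM-CSF, M-CSF and TGF-beta held 0 called of 22 by edgeR, with 2 higher and 6 lower at an unadjusted p under 0.05 and 1 higher and 4 lower by DESeq2. Csf1r, the receptor of M-CSF, read 418, 386 and 365 CPM in KO libraries, against 752, 531 and 492 CPM in WT libraries (adjusted p = 0.235), and Tgfbr1 read 279, 383 and 406 CPM in KO libraries, against 614, 553 and 455 CPM in WT libraries (adjusted p = 0.221). Runx1 and Skil averaged 294 CPM in KO and 391 CPM in WT libraries (adjusted p = 0.242) and 162 CPM in KO and 267 CPM in WT libraries (adjusted p = 0.266). MHC class II and co-stimulation genes held 0 called of 15, with 1 higher and 2 lower at an unadjusted p under 0.05 and 1 lower by DESeq2. Interferon-stimulated genes held 0 called of 24, with 0 higher and 3 lower at an unadjusted p under 0.05 and 1 lower by DESeq2. Cd274, which encodes PD-L1, averaged 102 CPM in KO and 187 CPM in WT libraries (adjusted p = 0.153). Gal, the galanin gene of the identity list, averaged 224 CPM in KO and 107 CPM in WT libraries (adjusted p = 0.273).

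The alveolar difference between genotypes was then set against the mean difference of Kupffer cells, microglia and splenic macrophages in a fit of all 24 libraries. Of 24030 genes tested, 207 differed (0.861%), 61 above 0 (0.254%) and 146 below (0.608%). This count ranged from 93 to 255 over the fits without 1 alveolar library, and was 93 without WT replicate 1 and 100 without WT replicate 2. It was 861 with DESeq2. Of the 55 genes called in alveolar macrophages 23 were among them, 11 higher and 12 lower in KO. Adgre4 was not called in any other type: its log2 fold changes were 0.22, -1.01 and -0.17 in Kupffer cells, microglia and splenic macrophages, and the alveolar effect minus their mean was -7.74 ± 0.84 (SE), adjusted p = 4.5e-05. Basp1 had 0.30, -0.12 and -0.16 there and differed by 2.61 ± 0.27 (SE), adjusted p = 4.5e-05. Ms4a6c had 0.05, -0.11 and -0.46 and differed by -1.95 ± 0.21 (SE), adjusted p = 4.5e-05. For Slc16a1 they were -0.53, 0.59 and 0.90, with a difference of -2.67 ± 0.30 (SE), adjusted p = 5.92e-05, and for Cd63 -0.18, -0.42 and 0.74, with a difference of 2.20 ± 0.27 (SE), adjusted p = 0.000178. Zeb2 itself differed by -0.95 ± 0.24 (SE), adjusted p = 0.0737, and was not called in this contrast. That depended on the fit: DESeq2 gave an adjusted p of 0.0105, and edgeR without WT replicate 3 gave 0.0267. The other alternatives run for the contrast did not call Zeb2.

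**Figure D5:**
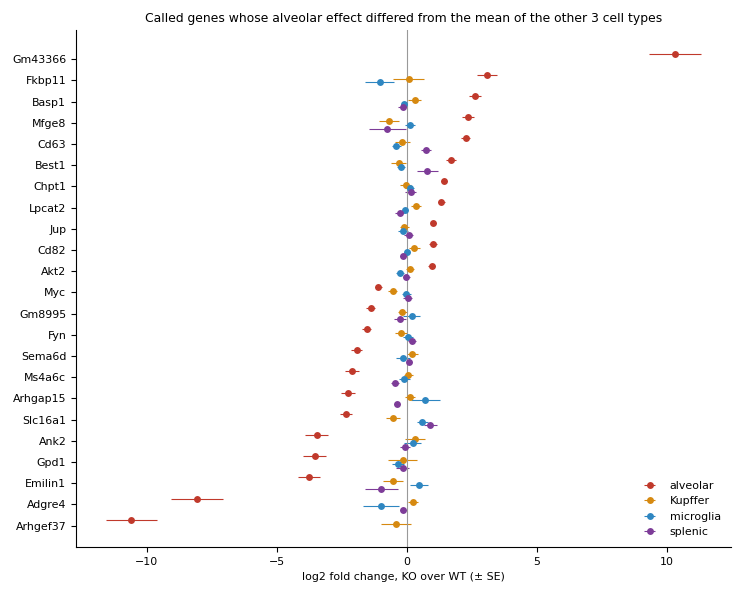
Log2 fold change of KO over WT (points, bars ± SE) in each of the 4 macrophage types for the 23 alveolar calls that the contrast with the other 3 types also called. A missing point is a gene that did not pass the count filter in that cell type, and alveolar values run from -10.59 for Arhgef37 to 10.30 for Gm43366.

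B-cell genes did not show this pattern. Fcmr was also called lower in Kupffer cells (log2 fold change -9.69, adjusted p = 0.00903). In splenic macrophages Fcmr (-8.17), Fcer2a (-6.53) and Ighm (-3.58) were called lower. The contrast did not call any of these 3 (adjusted p from 0.263 to 1), which does not show that the effects were alike. Bmpr1a was called higher in splenic macrophages too (2.68, adjusted p = 0.00805), and had 0.71 in Kupffer cells (adjusted p = 0.217). Of the 55 genes, 46, 37 and 41 were tested in Kupffer cells, microglia and splenic macrophages, and 1, 0 and 5 of them were called there. Of all genes tested in each type, the same edgeR test called 12 in Kupffer cells (0.0629%), 0 in microglia (0%) and 133 in splenic macrophages (0.747%). At an unadjusted p under 0.05 there were 794 of 17880 tested genes in microglia, against 2172 of 17369 in alveolar macrophages. With 3 libraries a genotype, the 0 calls in microglia do not show that these genes were unchanged there.

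Several called genes lie close together. Of the 55, 8 pairs lay within 1000000 bases of each other; Cxcr2 with Cxcr1, Myo1d with Tmem98, Fth1 with Best1 and Fcer2a with Cd209a (49222 bases apart) had no tested gene between them, and each of these pairs moved in 1 direction. Blvrb with Akt2 and Arhgef37 with Ablim3 each had 6 tested genes between them and moved in 1 direction as well. Fkbp11 with Gpd1 and Mfge8 with Kif7 moved in opposite directions, with 27 and 4 tested genes between them. The 8 pairs were not set against the number among all tested genes, so whether they are many was not tested. Of the 55 called genes, 38 shared under 1% of their 50-base words with other transcripts, 5 shared 10% or more, and 11 overlapped another tested gene.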

How the data were processed

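Bulk RNA sequencing of sorted macrophages was analysed in 6 alveolar libraries (3 KO, 3 WT), with the other 18 libraries of the series for 1 contrast. The submitters' processing notes list the genome build mm10 with DRAGEN, STAR, Subread, featureCounts and Salmon. Roles, settings and strand are not given in the sources used here. All tests used the whole-number gene counts that the authors deposited. Recomputing CPM gave the deposited CPM to within 4.7e-11. The deposited TPM were used only for levels and ranks by abundance. Of 55774 gene entries, 287 repeats of a gene were dropped, of which 287 held the same counts as the first entry.

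Tests were two-sided quasi-likelihood tests of edgeR 4.0.16 in R 4.3.3 with TMM scaling, filterByExpr at a minimum count of 10 and Benjamini-Hochberg adjustment at 0.05 over all genes tested. Values are mean ± SD of 3 libraries, fold changes KO over WT with their SE. Alternatives were DESeq2 1.42.0, its size factors, no filter, a minimum count of 50, a fit of all 24 libraries, a replicate block and leaving out libraries. Floors take 3 counts over a group, and floors and the 95% intervals cover counting error only, since reads are not independent molecules. With 3 against 3 an exact permutation test cannot go below 0.1. Every pair of replicates differed by more than sampling noise. Coordinates are GENCODE on mm10, for 17347 of the 17369 tested genes, and sequences are RefSeq on GRCm38.p6. The comparison, the 35 gene lists and the genes named (every called gene, the markers, and up to 5 uncalled genes a list by smallest p at 1 CPM or more in the higher genotype) were chosen with earlier results of these data known. No statistic over a list was tested. A few called or listed genes that enter the counts are not reported here by name.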

Additional observations from a re-analysis of the deposited data

Results flagged for a closer look

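For 30 of the 162 named genes the KO effect in alveolar macrophages differed from the mean KO effect of Kupffer cells, microglia and splenic macrophages, by edgeR's quasi-likelihood contrast in a fit of all 24 libraries (adjusted p under 0.05). The value beside each gene is that difference on the log2 scale. Among genes called higher in alveolar KO libraries these were Gm43366 (12.95), Fkbp11 (3.86), Mfge8 (2.80), Basp1 (2.61), Cd63 (2.20), Best1 (1.61), Chpt1 (1.36), Lpcat2 (1.31), Jup (1.07), Akt2 (1.0) and Cd82 (0.95). Among genes called lower these were Arhgef37 (-10.66), Adgre4 (-7.74), Ank2 (-3.63), Emilin1 (-3.41), Gpd1 (-3.31), Slc16a1 (-2.67), Arhgap15 (-2.42), Sema6d (-1.98), Ms4a6c (-1.95), Fyn (-1.55), Gm8995 (-1.31) and Myc (-0.92). A further 7 genes were not called within alveolar macrophages: Ccl7 (-2.52), Csf3r (0.97), Egr1 (-3.13), Egr2 (-1.54), Fcgr2b (1.47), Marcks (-1.02) and Timp2 (-1.74). Egr1 read 346, 214 and 225 CPM in KO libraries, against 684, 4976 and 536 CPM in WT libraries, so WT replicate 2 sets most of its size. Genes at or near 0 counts in 1 genotype, such as Arhgef37 and Gm43366, have differences that depend on a prior count.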

How the results depend on the processing

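The number of genes called between alveolar KO and WT libraries depended on the processing, while the direction of every called gene did not. The KO and WT libraries of these genes did not overlap, so leaving libraries out could hardly reverse a direction. The 55 calls became 922 with DESeq2 (417 higher, 505 lower), 297 in the fit of all 24 libraries (76 higher, 221 lower; 21 of the 55 not among them), 163 with no filter (70 higher, 93 lower), 100 at a minimum count of 50 (48 higher, 52 lower) and 56 with DESeq2's size factors. Leaving out 1 library gave 0 to 29 calls. With KO replicate 1 and WT replicate 2 both left out, a setting chosen after the data were seen, it was 0, with 1784 genes at an unadjusted p under 0.05. The replicate block gave 0 calls, with 1779 at an unadjusted p under 0.05. For replicate numbers 1, 2 and 3, the deviations of the alveolar KO and WT libraries of that number correlated at r = -0.03, 0.01 and -0.05. Of the 3 KO libraries, 1 correlated best with its own number. So few values near 0 show no pairing by number but cannot exclude it, and the labels do not settle it. For Zeb2 the log2 fold change was -0.89 with DESeq2 (adjusted p = 0.000513) and -0.89 in the fit of all 24 libraries (adjusted p = 0.0408), both past the threshold, -0.86 with the replicate block, and -1.07 to -0.78 without 1 library. The 207 genes whose effect differed from the other cell types became 861 with DESeq2, 111 with a replicate block over the 4 cell types, 212 with DESeq2's size factors, 173 with no filter and 93 to 255 without 1 alveolar library. Called members over all lists, 36, became 140 with DESeq2 and 0 with the block. A few uncalled genes changed sign. With both libraries left out, Pparg read 0.039, Siglecf -0.051 and Sftpc -0.24. Without 1 library, Pparg ranged from -0.10 to 0.0291, Siglecf from -0.065 to 0.103, and Sftpc from -0.18 to 0.59. Ngp ranged from -0.0454 without KO replicate 3 to 1.66 without WT replicate 3. The cause was not tested in any of these. Of the called genes, 12 averaged under 1 CPM in KO and 6 in WT libraries, and these low counts limit the precision of their folds.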
